A study of Mus musculus with 6 samples.

Results

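Placental hormone genes and granzyme genes were followed through 6 arrays of mouse embryonic bladder. The 43 genes were chosen by name: a symbol of Prl with a digit, Psg with a number, Tpbpa, Tpbpb, or Gzm with 1 letter. They made up 43 of the 19938 genes with a symbol of their own on the array: 19 of the prolactin family, 12 Psg genes, 2 Tpbp genes and 10 granzymes. The families were picked because earlier results on these arrays showed such transcripts high on some of them, so their levels by array are given as a description, with no test. The 6 samples were bladders of E14.5 embryos, each a pool of 2 organs, hybridised to Affymetrix Mouse Gene 1.0 ST arrays, with 1 array per pool. The 3 samples here called Klf5-deleted were labelled Klf5 ∆/∆, which is a deletion on both alleles of the zinc-finger transcription factor gene Klf5. The 3 controls were labelled Klf5+/+ShhGfpCre+, that is, intact Klf5 with an allele that makes the Cre recombinase where Shh is expressed, such as in bladder epithelium. The genotype label of the deleted group does not name a Cre. One label calls the tissue urothelium, but the protocol speaks of whole bladders, so muscle and connective tissue were taken to be present. The labels do not say which pools shared a litter, so p-values measure the spread between pools only.

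As background, the mouse placenta releases a large family of hormones related to pituitary prolactin, which act on the mother's ovary, metabolism, blood vessels and immune cells. Its spongiotrophoblast and giant cells also secrete the pregnancy-specific glycoproteins (Psg), relatives of carcinoembryonic antigen, and Tpbpa is the usual marker of spongiotrophoblast. The decidua is the maternal lining that meets the placenta. Uterine natural killer cells of the decidua store granzymes, serine proteases that enter target cells through the pore protein perforin.

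The promoters of 6 genes are shown because these genes carry the patterns described below: the Tpbp pair and Psg18 were high on 1 control array, Gzmd and Gzmg were high on 3 arrays, and Gzmn, their neighbour, was flat. The windows run from 250 bases before to 50 bases after the gene's start, 5′ to 3′ on the gene's own strand, from RefSeq on GRCm38.p6. All 6 genes lie on the minus strand: Tpbpa at chr13:60941887-60942186, Tpbpb at chr13:60904798-60905097, Psg18 at chr7:18354958-18355257, Gzmd at chr14:56132544-56132843, Gzmg at chr14:56159530-56159829 and Gzmn at chr14:56174550-56174849. Capitals mark matches, on either strand, to 4 short patterns: TATAAA (the core promoter box), AGATAA (bound by GATA factors), TGANTCA (bound by AP-1) or TGTGGTT (bound by RUNX factors). Each window shown holds 1 match in all, so no match overlaps another.
Tpbpa: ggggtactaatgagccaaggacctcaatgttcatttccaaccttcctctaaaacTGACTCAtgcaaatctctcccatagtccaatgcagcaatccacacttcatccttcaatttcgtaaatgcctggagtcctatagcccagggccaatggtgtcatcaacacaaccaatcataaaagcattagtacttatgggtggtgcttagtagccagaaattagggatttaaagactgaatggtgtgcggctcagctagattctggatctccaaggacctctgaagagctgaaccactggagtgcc
Tpbpb: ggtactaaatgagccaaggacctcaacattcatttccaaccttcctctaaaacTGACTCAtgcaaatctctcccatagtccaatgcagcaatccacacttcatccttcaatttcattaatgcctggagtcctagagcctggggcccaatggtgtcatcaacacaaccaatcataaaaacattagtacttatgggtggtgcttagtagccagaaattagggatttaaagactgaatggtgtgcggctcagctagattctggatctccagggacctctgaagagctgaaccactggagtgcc
Psg18: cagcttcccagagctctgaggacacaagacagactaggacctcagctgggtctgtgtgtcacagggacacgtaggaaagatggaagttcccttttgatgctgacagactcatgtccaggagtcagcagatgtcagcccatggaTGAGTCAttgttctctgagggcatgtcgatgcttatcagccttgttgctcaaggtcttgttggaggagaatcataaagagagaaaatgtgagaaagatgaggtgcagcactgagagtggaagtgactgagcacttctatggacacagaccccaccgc
Gzmd: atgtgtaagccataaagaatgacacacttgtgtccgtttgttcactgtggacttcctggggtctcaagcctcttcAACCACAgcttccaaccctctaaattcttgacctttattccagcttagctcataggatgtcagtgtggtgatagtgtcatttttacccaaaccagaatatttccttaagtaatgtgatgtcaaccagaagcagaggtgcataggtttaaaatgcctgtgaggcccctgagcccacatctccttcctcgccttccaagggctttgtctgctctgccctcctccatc
Gzmg: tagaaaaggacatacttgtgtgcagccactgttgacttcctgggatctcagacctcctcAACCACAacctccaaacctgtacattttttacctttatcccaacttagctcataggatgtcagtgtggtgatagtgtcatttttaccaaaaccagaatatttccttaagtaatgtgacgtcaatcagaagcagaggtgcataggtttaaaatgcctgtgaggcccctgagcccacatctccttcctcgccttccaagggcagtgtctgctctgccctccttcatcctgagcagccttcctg
Gzmn: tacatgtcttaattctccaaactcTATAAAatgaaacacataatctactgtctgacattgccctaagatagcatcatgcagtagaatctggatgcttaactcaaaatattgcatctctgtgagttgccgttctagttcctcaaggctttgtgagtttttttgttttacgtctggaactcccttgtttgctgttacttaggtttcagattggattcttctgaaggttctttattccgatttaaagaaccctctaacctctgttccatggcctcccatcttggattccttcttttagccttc
The Tpbpa and Tpbpb windows were 95.7% identical in a global alignment, and each held 1 match to TGANTCA. Psg18 also held 1 match to TGANTCA, while Gzmd and Gzmg each held 1 match to TGTGGTT, read on the opposite strand. Gzmn held 1 match to TATAAA, far upstream of the start, and none to the other letters searched.

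Muscle genes were high on all 6 arrays, and uroplakin genes and Klf5 separated the genotypes. Klf5 ranged from 10.12 to 10.34 on the Klf5-deleted arrays and from 10.63 to 10.97 on the controls. These are deposited values on the log2 scale, made with RMA, on which 1 unit is a 2-fold difference. The smooth muscle genes Acta2, Myh11, Actg2 and Cnn1 read between 12.43 and 14.16 on every array. Of 16 bladder genes, the uroplakin genes Upk1a, Upk1b, Upk2 and Upk3a fell in the Klf5-deleted group past an adjusted p of 0.05 by limma, a linear model fitted across all genes, and the other 12 did not pass. The medians of the arrays over all features were between 7.68 and 7.80. The genes of this report were dim: 41 of the 43 had a mean below that of the median gene, and only Tpbpa and Gzmg lay above it. The levels of different genes are not compared, since each rests on its own probes.

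The spongiotrophoblast genes Tpbpa and Tpbpb were high on the array of control 2 and graded over the other arrays. Tpbpa read 8.02, 10.34 and 6.18 on Klf5-deleted 1, 2 and 3, and 6.19, 13.13 and 8.35 on control 1, 2 and 3. Control 2 thus lay 6.91-fold above the next array, Klf5-deleted 2, and 123-fold above the lowest. Klf5-deleted 3 and control 1 were the lowest pair, so each genotype had a low array, and the groups overlapped. Tpbpb, the neighbouring paralog, read 6.83, 9.30 and 4.90 in the Klf5-deleted group and 5.14, 13.03 and 7.03 in controls. The order of the 6 arrays was the same for both genes. The array may not separate the paralogs.

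**Figure D1:**
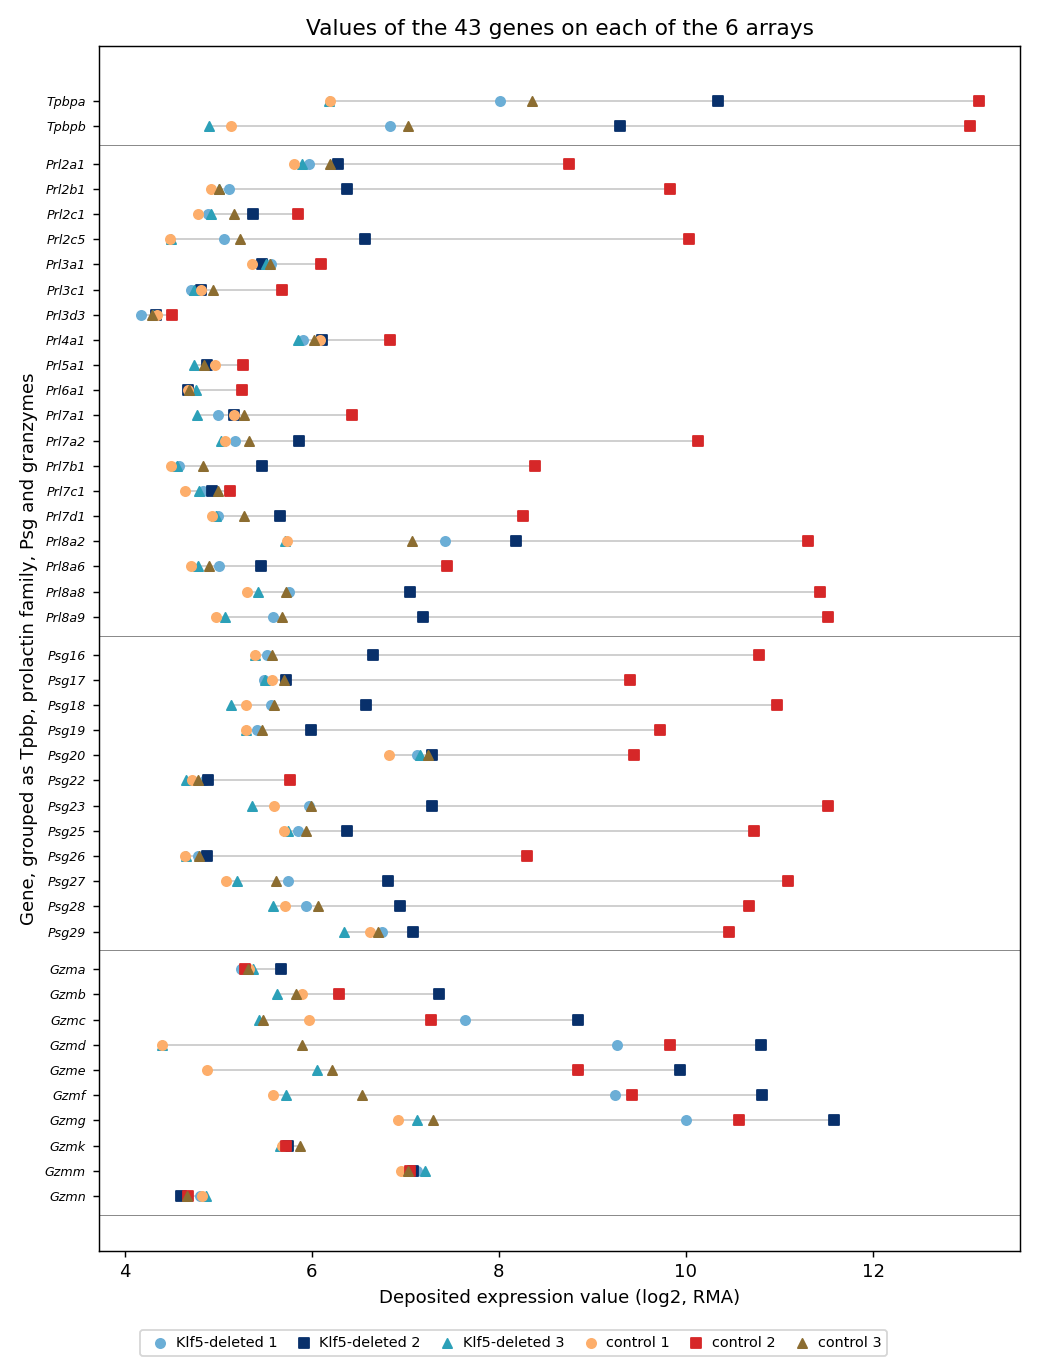
Deposited log2 value of each of the 43 genes (rows, grouped by family) on the 6 arrays; each point is 1 array, a pool of 2 bladders, and the grey line spans the 6 values. Control 2 is the rightmost point for all 33 genes outside the granzymes, and Klf5-deleted 2 for 7 of 10 granzymes.

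All 33 genes of the prolactin, Psg and Tpbp families were highest on control 2. Over all genes tested, 16% were highest there. A gene was said to stand out on an array when it read at least 2-fold (1 log2 unit) above its second highest array. By that measure 24 of the 33 stood out on control 2, against 0.476% of all genes, and none of them on another array. The second highest array was Klf5-deleted 2 for 26 of the 33, among them all 12 Psg genes. The lowest was Klf5-deleted 3 or control 1 for 29 of the 33, and those arrays were the lowest pair for 23, as they were for 3.66% of all genes. Control 3 read above control 1 for 30 of the 33 genes. Since the families were picked with these arrays in view, the shares describe the arrays and support nothing further. Prl7a1, at 1.15 above its next array, was the member closest above the 1-unit line on control 2, and Psg22, at 0.88, the closest below it.

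Among the Psg genes, 11 of 12 stood out on control 2. Psg18 read 5.57, 6.58 and 5.14 on Klf5-deleted 1, 2 and 3 and 5.30, 10.97 and 5.59 on control 1, 2 and 3. Psg25 read 5.85, 6.37 and 5.75 against 5.70, 10.73 and 5.94. Control 2 exceeded the next array 21.0-fold for Psg18 and 20.5-fold for Psg25, and in each gene the other 5 arrays lay within 1.5 units of each other. Psg23 read 5.97, 7.29 and 5.36 in the Klf5-deleted group and 5.60, 11.52 and 5.99 in controls. Psg27 read 5.75, 6.81 and 5.20 against 5.09, 11.09 and 5.61. These were the Psg genes with the widest ranges, 71.4-fold and 64.2-fold, and both had Klf5-deleted 2 clearly above the remaining arrays. Psg26 was flat on the other 5 arrays, at 4.79, 4.88 and 4.65 in the Klf5-deleted group and 4.65 and 4.80 on control 1 and 3, yet read 8.31 on control 2.

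The remaining Psg genes behaved in the same way with other sizes. Control 2 lay above the next array 17.4-fold for Psg16, 12.8-fold for Psg17, 13.3-fold for Psg19, 13.3-fold for Psg28 and 10.4-fold for Psg29. Psg29 read 6.75, 7.08 and 6.35 in the Klf5-deleted group and 6.62, 10.46 and 6.71 in controls, and Psg28 read 5.94, 6.94 and 5.58 against 5.72, 10.68 and 6.07. Psg20 was 4.47-fold above its next array. It is the only member with more than 1 feature of its own; the second feature, which the choice by highest mean left out, read 5.27, 5.54 and 5.05 in the Klf5-deleted group and 5.01, 6.54 and 5.27 in controls. Both features had the same highest and second highest array, and the second stopped just short of 2-fold, at 0.997 units. Psg22 had the smallest difference, 1.84-fold, with values of 4.66 to 4.89 on the other 5 arrays. A feature shared by Psg20, Psg21, Psg23 and Psg25, which was outside the choice because it carries several symbols, read 7.55, 9.34 and 6.94 against 6.74, 13.15 and 7.88. Psg genes are near-identical copies in places, and the array may not separate them.

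In the prolactin family 11 of 19 genes stood out on control 2. Prl8a8 and Prl8a9, which code for prolactin-like proteins of the spongiotrophoblast, were the clearest. Prl8a8 read 5.75, 7.05 and 5.42 on Klf5-deleted 1, 2 and 3 and 5.31, 11.43 and 5.73 on control 1, 2 and 3. Prl8a9 read 5.59, 7.19 and 5.07 against 4.97, 11.52 and 5.69. Control 2 exceeded the next array 20.8-fold and 20.1-fold, and Klf5-deleted 2 was second for each. Prl7a2 read 5.17, 5.86 and 5.03 against 5.07, 10.13 and 5.33, so that control 2 was 19.3-fold above the next. Prl2b1 and Prl2c5, the latter a proliferin, which promotes vessel growth, stood 3.45 and 3.46 units above their next arrays. Prl2c5 read 5.06, 6.57 and 4.50 in the Klf5-deleted group and 4.48, 10.03 and 5.23 in controls, and Prl2b1 read 5.12, 6.37 and 5.00 against 4.93, 9.83 and 5.01. A feature shared by the proliferin symbols Prl2c2, Prl2c3 and Prl2c4 read 4.54, 5.00 and 4.42 against 4.63, 6.31 and 4.64, again with control 2 highest. Prl7d1, which codes for the proliferin-related protein that opposes vessel growth, read 5.00, 5.66 and 4.97 against 4.94, 8.26 and 5.28. The vessel-promoting and vessel-opposing hormones were thus high on the same array.

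Prl8a2, which codes for a decidual and trophoblast prolactin-related protein, had a different shape from its neighbours. It read 7.43, 8.18 and 5.71 on Klf5-deleted 1, 2 and 3 and 5.74, 11.31 and 7.07 on control 1, 2 and 3. Control 2 was 8.75-fold above Klf5-deleted 2, but Klf5-deleted 1 and control 3 were also more than 1 unit above the low pair, as they were for Tpbpa and Tpbpb and not for Prl8a8 or Prl8a9. Prl2a1, Prl7b1 and Prl8a6 stood 5.53-fold, 7.52-fold and 3.99-fold above their next arrays. Prl2a1 read 5.97, 6.28 and 5.90 against 5.81, 8.75 and 6.19, Prl7b1 read 4.58, 5.47 and 4.56 against 4.50, 8.38 and 4.84, and Prl8a6 read 5.01, 5.45 and 4.78 against 4.71, 7.45 and 4.90. In all 3 the second array was Klf5-deleted 2. The last of the 11, Prl7a1, was 2.22-fold above control 3, with values of 5.00, 5.17 and 4.78 against 5.16, 6.43 and 5.28.

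The other 8 prolactin-family genes did not stand out, and 7 of the 19 had a range under 1 unit over the 6 arrays, as did 96.2% of all genes. Prl3d3, a gene of placental lactogen I, the hormone of early giant cells, read 4.17, 4.33 and 4.30 in the Klf5-deleted group and 4.34, 4.51 and 4.29 in controls. Prl3c1 read 4.71, 4.81 and 4.74 against 4.82, 5.68 and 4.95, and Prl4a1, a giant cell hormone, read 5.90, 6.11 and 5.86 against 6.09, 6.84 and 6.03. Both had control 2 highest by 0.73 units. Prl2c1, Prl3a1, Prl5a1, Prl6a1 and Prl7c1 had gaps of 0.48, 0.53, 0.30, 0.49 and 0.13 units. The deposited values carry no detection calls, so whether a flat gene was detected at all is not known.

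Genes that stood out often lay next to each other, in a description made after the values were seen. In the RefSeq table of GRCm38.p6, all 43 members were matched by Entrez identifier, and 18 of the 19 prolactin-family members form a run on chromosome 13 with at most 1 other coding gene between neighbours. In the stretch of this run from Prl8a2 to Prl2a1, 10 of 11 members stood out on control 2, Prl7c1 being the exception. The ends of this stretch were set at the first and last members of the run that stood out. That none of the 7 members outside it did was therefore fixed by that choice, and their gaps were at most 0.73 units. Of the 10 Psg members in a run on chromosome 7 from Psg18 to Psg17, 9 stood out on control 2. Psg16 and Psg29, outside this run, stood out as well, so the share in the run was much like the 11 of 12 for all Psg genes. Prl2c5, with 177 coding genes between it and the prolactin run, also stood out on control 2. Neighbours share sequence, and where the array does not separate paralogs they are not independent readings.

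The granzymes followed another order of arrays. Highest was Klf5-deleted 2 for 7 of 10 genes, against 18.3% of all genes, and none was highest on control 2, against 16%. In Gzmb, Gzmc, Gzmd, Gzme, Gzmf and Gzmg the 3 highest arrays were Klf5-deleted 1, Klf5-deleted 2 and control 2. The same 3 arrays were highest, in any order, for 2.22% of all genes. Klf5-deleted 1 was second for Gzmc and Gzme, and control 2 for the others. Gzmd read 9.26, 10.80 and 4.39 on Klf5-deleted 1, 2 and 3 and 4.40, 9.83 and 5.90 on control 1, 2 and 3, an 84.9-fold range. Gzmg read 10.01, 11.58 and 7.12 against 6.92, 10.57 and 7.29. Both genotypes had high and low arrays in each gene, so the groups overlapped. Gzmf read 9.24, 10.81 and 5.73 against 5.58, 9.43 and 6.54, and Gzme read 8.84, 9.94 and 6.06 against 4.88, 8.84 and 6.22. Gzmc read 7.64, 8.84 and 5.43 against 5.97, 7.28 and 5.48, a narrower range of 3.41 units. Whether placental or decidual tissue was left on the dissected bladders was not tested, and in bulk RNA fewer cells of a type and less RNA per cell cannot be told apart.

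Gzmb, Gzmc, Gzme, Gzmf and Gzmg stood out on Klf5-deleted 2, at 2.10, 2.30, 2.13, 2.61 and 2.02-fold above the second array. Only 0.0301% of all genes, 6 in number, stood out there, and these 5 were among them. Gzmd just missed the line at 0.98 units and Gzmg just passed it at 1.01. Gzmb, the granzyme of cytotoxic T and natural killer cells, read 6.28, 7.36 and 5.63 in the Klf5-deleted group and 5.89, 6.29 and 5.83 in controls. Its range was 1.73 units, against 3.41 to 6.41 units for Gzmc to Gzmg.

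Of the granzymes, 4 had a range under 1 unit and are called flat here. Gzmn, known from testis, read 4.80, 4.602 and 4.87 against 4.82, 4.67 and 4.67. Gzma, the other main granzyme of cytotoxic lymphocytes, read 5.25, 5.67 and 5.37 against 5.33, 5.29 and 5.31, with Klf5-deleted 2 highest by 0.30 units. Gzmk, a granzyme of T cells, stayed between 5.66 and 5.88 and Gzmm, a granzyme of natural killer cells, between 6.95 and 7.21. Gzma and Gzmk adjoin each other on chromosome 13 and Gzmm lies on chromosome 10, whereas the other 7 form an unbroken run on chromosome 14 in the order Gzme, Gzmd, Gzmg, Gzmn, Gzmf, Gzmc and Gzmb. The flat gene Gzmn thus lies between Gzmg and Gzmf, both with ranges over 4.6 units. In the promoter windows, Gzmd, Gzme, Gzmf and Gzmg were 76.3% to 93.4% identical to each other. Gzmc was 73.5% to 82.7% identical to these 4, Gzmb 43.5% to 47.8% and Gzmn at least 47.2% in the same way, with Gzmf closest at 164 of 328 aligned positions, while windows of different families shared 48.1% to 49.1% in the same alignment. This is a description of 7 genes, with no test.

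**Figure D2:**
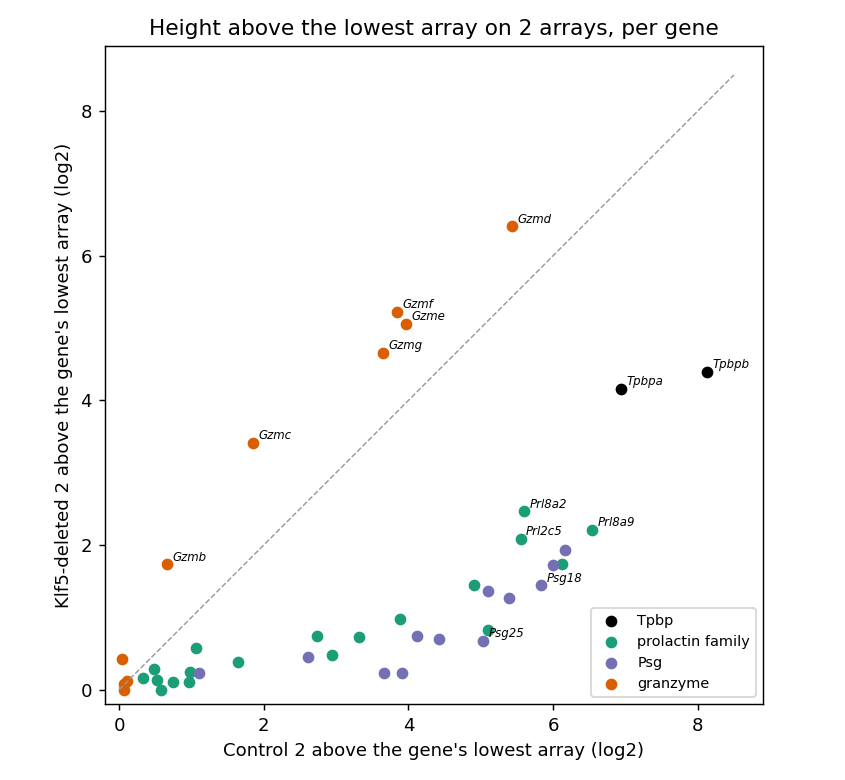
For each of the 43 genes, the height of control 2 (x axis) and of Klf5-deleted 2 (y axis) above the gene's lowest array, in log2 units; the dashed line marks equal heights. All 33 prolactin, Psg and Tpbp genes lie below the line and 9 of 10 granzymes above it, of which Gzma, Gzmk and Gzmm lie near the origin.

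The contrast between control 2 and Klf5-deleted 2 is given as a description, since these are the arrays on which the families peaked. All 33 prolactin, Psg and Tpbp genes were higher on control 2, and 9 of 10 granzymes were higher on Klf5-deleted 2. These counts include flat genes, for which the sign means little. The arrays differed by 0.020 units for Gzmk, 0.024 for Gzmm, 0.17 for Prl3d3 and 0.18 for Prl7c1. Control 2 exceeded Klf5-deleted 2 by 4.39 units for Psg18, 3.13 for Prl8a2, 3.74 for Tpbpb and 2.79 for Tpbpa. Klf5-deleted 2 exceeded control 2 by 1.57 units for Gzmc, 1.38 units for Gzmf and 0.98 units for Gzmd. Each side is 1 array, so this contrast has no replicate check. Klf5-deleted 1 was high for the same granzymes while its Psg18 and Prl8a9 values of 5.57 and 5.59 lay near those of control 3, at 5.59 and 5.69.

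In the 37 members with a promoter in the RefSeq table (42 windows), 3 of the letter patterns were more common than over the 32851 windows of all genes. The counts differed by family. AGATAA was present in 11 of 19 prolactin-family windows but in 1 of 10 Psg and 1 of 11 granzyme windows, against 11.2% of all windows. TGTGGTT was present in 7 of 11 granzyme windows, in 2 of 19 prolactin-family windows and in none of 10 Psg windows, against 5.27% of all. TGANTCA was present in 4 of 10 Psg, 6 of 19 prolactin-family and 1 of 11 granzyme windows, against 7.81% of all. TATAAA was present in 5 of the 42 member windows, or 11.9%, against 13.6%. Windows of 1 family share sequence by descent and some genes have more than 1 window, so these counts are not independent, and a match does not show a bound factor.

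No gene of the 3 families or the granzymes passed the genotype comparison. limma called 0 of 43 members at an adjusted p of 0.05, against 1.98% of all genes, and the lowest adjusted p was 0.417, for Prl7a1. At an unadjusted p of 0.05 it also called 0 of 43, against 14.4% of all genes. The families were picked because such transcripts were high on some arrays, which widens the spread within groups. The share of members called, or with groups that do not overlap, therefore says little about genotype. The median log2 difference, Klf5-deleted minus control, was -0.65 over the 43 genes and -0.01 over all genes. All 33 prolactin, Psg and Tpbp genes were lower on average in the Klf5-deleted group, with a median of -1.04, and 9 of 10 granzymes were higher, with a median of 0.74. The spread within groups was wide: Tpbpa was 8.18 ± 2.08 (SD, n = 3) against 9.22 ± 3.55 (SD, n = 3), a difference of -1.04 with a 95% confidence interval of -5.15 to 3.06. Psg18 differed by -1.53 (95% confidence interval -4.79 to 1.74) and Gzmd by 1.44 (-2.91 to 5.79). The groups did not overlap for 2 of the 43, Prl3c1 and Gzmm, against 20.5% of all genes. Intervals of this width leave room for large differences in either direction.

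Without control 2 the sign of the prolactin, Psg and Tpbp differences turned. The median of the 33 genes was 0.16, with 27 higher and 6 lower in the Klf5-deleted group, and over all 43 members the median was 0.17. Tpbpa then differed by 0.91 (95% confidence interval -1.77 to 3.58) and Psg18 by 0.32 (-0.56 to 1.19). The granzyme median was 1.07, and Gzme differed by 2.73 (0.33 to 5.14) and did not pass (limma's adjusted p = 0.334). Again 0 of 43 members passed, against 1.75% of all genes. At an unadjusted p of 0.05 only Gzme did, against 12.4% of all genes. The limit set by the choice of families applies here too.

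**Figure D3:**
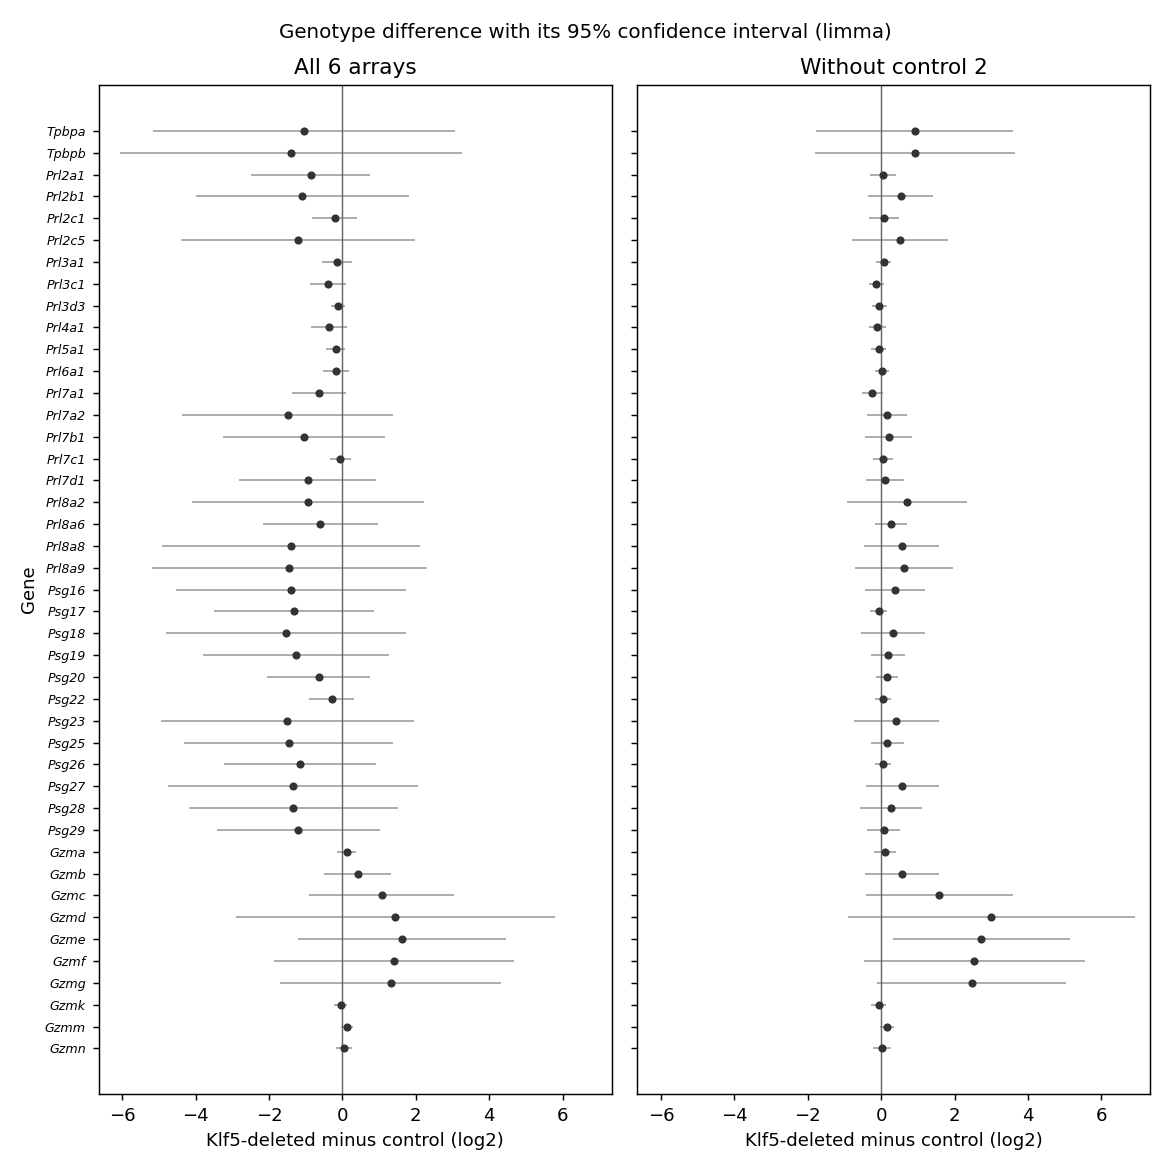
Log2 difference between genotypes, Klf5-deleted minus control, for each gene with its 95% confidence interval from limma, over all 6 arrays (left, 3 against 3) and without control 2 (right, 3 against 2). With all arrays every interval includes 0; without control 2 the point estimates of 27 of the 33 genes outside the granzymes lie above 0.

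Other trophoblast genes, from a list of 26 of which 23 were measured, had the shape of the prolactin and Psg families in part. Of the 23, 18 were highest on control 2, against 16% of all genes, and 9 stood out there, against 0.476%. Ceacam14, a placental relative of the Psg genes, read 6.46, 7.92 and 5.54 on Klf5-deleted 1, 2 and 3 and 5.84, 11.87 and 6.49 on control 1, 2 and 3. Ceacam12 read 5.68, 7.41 and 5.35 against 5.19, 10.997 and 6.15, and Ceacam11 read 6.005, 6.61 and 5.89 against 5.61, 9.96 and 5.99. In these Ceacam genes the order of control 2 and then Klf5-deleted 2 was that of Tpbpa, as it was in Ctsj, Ctsq and Rhox9. Pappa2 and Ctsr were also highest on control 2, but Klf5-deleted 3 was second, at 8.33 and 6.30. Plac1 was highest on control 1, at 9.61. The range was under 1 unit for 12 of the 23, among them Ascl2, a regulator of spongiotrophoblast, at 6.32 to 6.92. In the genotype comparison 22 did not pass, and Tfap2c fell, from 7.58, 8.04 and 7.69 in controls to 7.02, 7.15 and 7.14.

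Markers of natural killer cells, which make granzymes, differed less between arrays than Gzmc to Gzmg did, and some had the same high arrays. Of 18 natural killer cell genes measured, 7 were highest on Klf5-deleted 2, against 18.3% of all genes, and 7 on control 2. Klf5-deleted 1, Klf5-deleted 2 and control 2 were the 3 highest arrays for 6 of the 18, against 2.22% of all genes. A range of at least 1 unit was found for 2 of the 18, against 3.77% of all genes: Prf1, which codes for perforin, and Srgn, which codes for the granule proteoglycan serglycin. Prf1 read 8.07, 8.82 and 7.31 in the Klf5-deleted group and 7.34, 7.94 and 7.29 in controls, with the same 3 high arrays as the granzymes. Srgn read 10.83, 11.21 and 10.43 against 10.15, 12.04 and 10.37, with control 2 highest. Klrg1 had the next widest range, from 5.58 to 6.40, with Klf5-deleted 2 highest. Among receptor genes of these cells, Klrb1b read 5.74 on Klf5-deleted 2 and 5.32 to 5.45 elsewhere, Klrd1 5.33 against 5.01 to 5.14, and Klrc1 4.90 against 4.62 to 4.68. Il2rb, a subunit of the interleukin receptors that these cells need, read 6.49 on Klf5-deleted 2 and 6.57 on control 2, against 5.99 to 6.10 elsewhere. Ncr1, Klrb1c and Klrk1, also receptor genes, had ranges of 0.28, 0.054 and 0.099 units, and Ncr1 was highest on Klf5-deleted 1. Other genes of the list peaked elsewhere: Eomes on Klf5-deleted 1, Serpinb9 on control 1, Klre1 on control 3, and Tbx21, Nkg7, Cd7 and Xcl1 on control 2. Serpinb9 was lowest on control 2. All 11 T cell genes measured had a range of at most 0.42 units, among them Cd247, Cd2 and Cd5. None was highest on Klf5-deleted 2, against 18.3% of all genes. Control 2 was highest for 5 of the 11, against 16% of all genes, and control 3 for another 5. A range under 1 unit was also found for 16 of the 18 natural killer cell genes and for 96.2% of all genes. Many natural killer cell genes were as flat as the T cell genes, such as Eomes and Tbx21 at 0.23 and 0.19 units. The mean over the natural killer list was 6.27, 6.45 and 6.17 in the Klf5-deleted group and 6.17, 6.40 and 6.16 in controls. The part of these cells in the granzyme values was not tested. None of the natural killer or T cell genes passed the genotype comparison.

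Of 6 decidual stroma genes measured, 5 had a range under 1 unit, near the share over all genes (96.2%). These genes may not be particular to decidua, which was not tested. Control 2 was the highest array for 3 of the 6, Bmp2, Pgr and Cebpb, against 16% of all genes. Wnt4 ranged from 8.44 to 9.64 with control 3 highest, Pgr, the progesterone receptor gene, from 6.30 to 7.17, and Alpl from 8.59 to 9.41. Bmp2 and Cebpb each had a range of 0.42 units. None passed the genotype comparison, and none had the array order of Prl8a2.

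**Figure D4:**
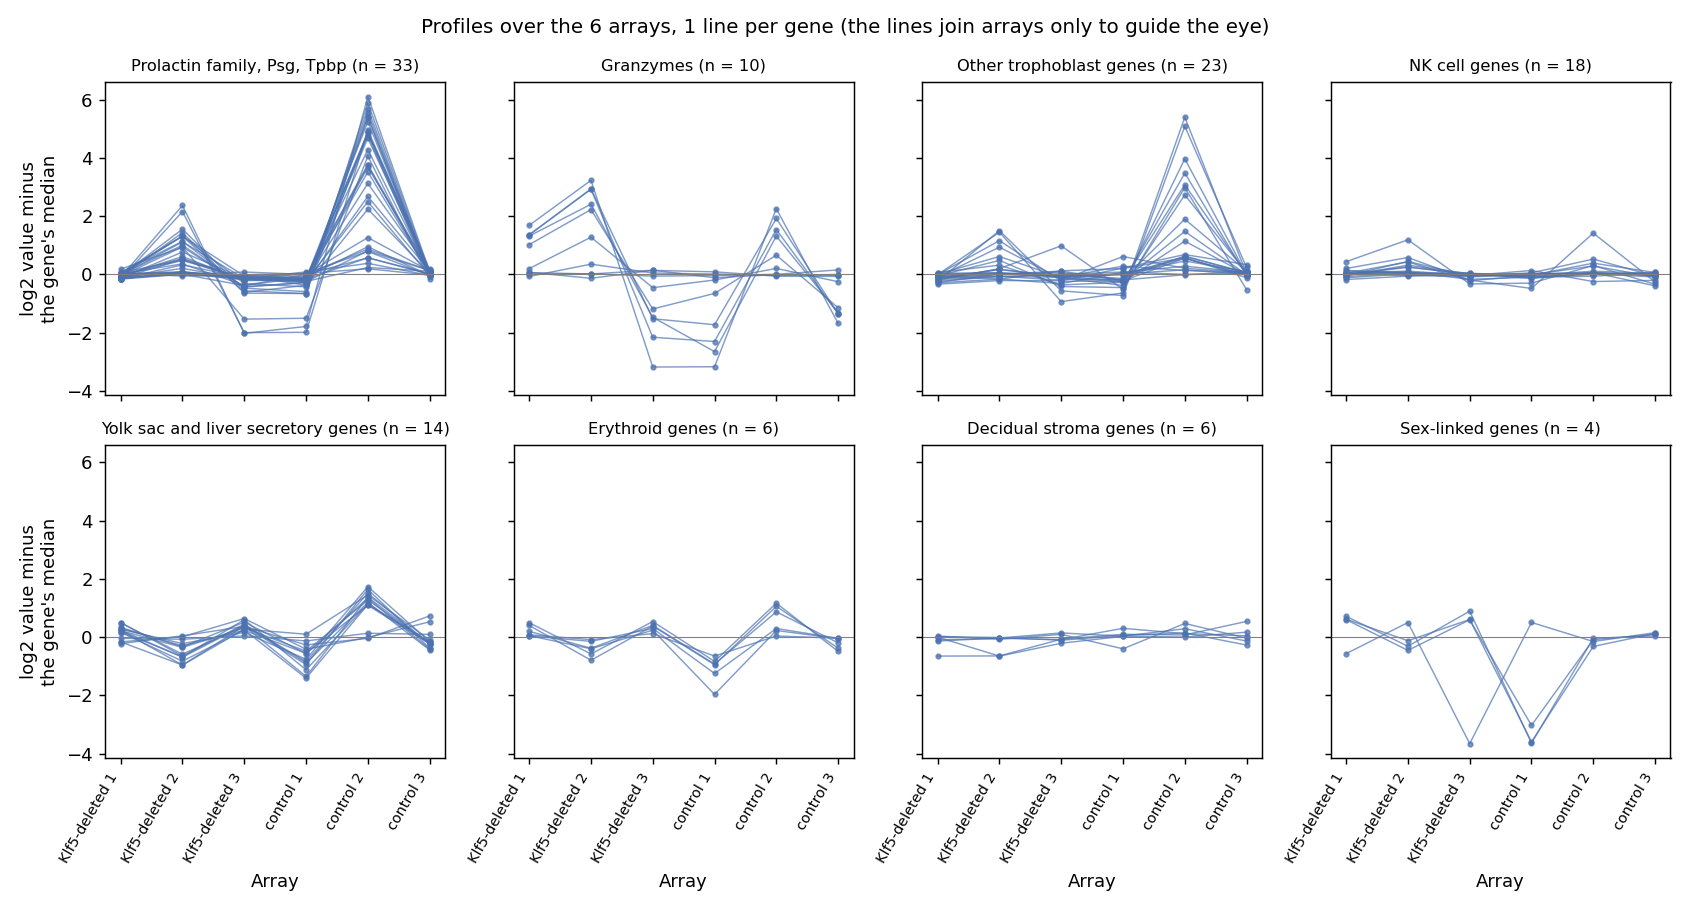
Values of each gene on the 6 arrays minus the gene's median (log2 units, y axis; 1 line per gene), for the members in their 2 patterns and for 6 marker lists. Prolactin, Psg and Tpbp genes peak on control 2, 6 granzymes are high on Klf5-deleted 1, Klf5-deleted 2 and control 2, and of the 14 yolk sac and liver genes, 12 are highest on control 2 and 11 are lowest or next to lowest on Klf5-deleted 2.

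Genes of yolk sac and liver secretion were also highest on control 2, but ordered the other arrays differently. Of 14 measured, 12 were highest on control 2, against 16% of all genes, and 4 stood out there, against 0.476%. Control 1 was the lowest array for 13. Klf5-deleted 2 was lowest or next to lowest for 11. Apoa4 and Cubn were the genes not highest on control 2: Apoa4 read 7.71 on Klf5-deleted 2 and 7.62 on control 2, with control 3 highest at 8.39, and Cubn read 6.84 and 6.82, with Klf5-deleted 3 highest at 7.47. Apoa1, an apolipoprotein gene, read 10.84, 9.65 and 10.99 on Klf5-deleted 1, 2 and 3 and 9.26, 11.98 and 10.38 on control 1, 2 and 3. Afp, which codes for alpha-fetoprotein, read 11.49, 10.51 and 11.58 against 9.93, 12.45 and 11.18, and Rbp4 read 9.91, 8.84 and 9.81 against 8.48, 11.06 and 9.04. Klf5-deleted 3, the lowest or near-lowest array for Tpbpa, was above both other control arrays for these 3 genes, and Klf5-deleted 2, next to highest for Tpbpa, was next to lowest. The 6 erythroid genes were all lowest on control 1, with Slc4a1, the band 3 gene of red cells, at 11.48, 10.29 and 11.46 against 10.13, 12.14 and 10.70, and Hbb-bh1, an embryonic globin gene, at 9.62, 9.17 and 9.81 against 7.61, 9.80 and 9.53. Epb42 read 9.02, 7.95 and 9.06 against 7.69, 9.69 and 8.03. None of these genes passed the genotype comparison.

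Transcripts of the sex chromosomes differed between pools as well. Xist, made from the inactive X chromosome of female cells, read 11.47, 12.54 and 8.38 on Klf5-deleted 1, 2 and 3 and 12.54, 11.89 and 12.19 on control 1, 2 and 3. The Y-linked gene Uty read 9.41, 8.39 and 9.59 against 5.05, 8.66 and 8.74, and Kdm5d and Eif2s3y were likewise lowest on control 1, at 5.87 and 5.68. The pool with low Xist, Klf5-deleted 3, and the pool with low Y-linked values, control 1, were the low pair for 28 of the 43 genes. They were the low pair for 3.66% of all genes, but the 43 were picked with these arrays in view. The other 4 pools had both Xist and Y-linked values high. The part of the pools' sex in the granzyme and hormone values was not tested.

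Outside the 43 genes, the 8 closest to Tpbpa in shape were Ctla2a, 4930486L24Rik, Tnfrsf9, Erv3, Ctsq, Rnase2a, Srgn and Ctla2b, by the mean absolute difference between profiles scaled from 0 to 1 over the 6 arrays, among 294 genes with a range of at least 1.5 units. Ctla2a, a cysteine protease inhibitor gene, was closest at 0.065 of the range, with values of 6.80, 7.84 and 6.11 in the Klf5-deleted group and 6.25, 9.58 and 6.53 in controls. Ctsq, a placental cathepsin gene, read 5.15, 6.19 and 5.09 against 5.07, 7.15 and 5.35. For Gzmd, the granzyme with the widest range, the closest were Prf1 at 0.157, Ctsg at 0.176, Srgn, Rnase2a, Gabrp, Gjb2, Ctla2a and 4930486L24Rik. Only Prf1 of these was highest on Klf5-deleted 2. Likeness over 6 arrays is a description only.

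**Figure D5:**
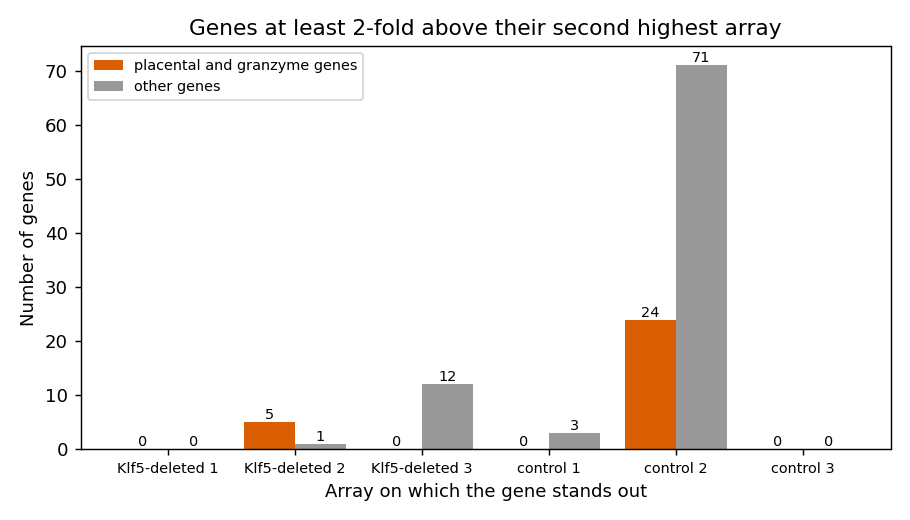
Number of genes (y axis) that read at least 2-fold above their second highest array, by the array on which they do so (x axis), for the 43 placental and granzyme genes and for all other genes. Control 2 has 24 of the 43 and 71 other genes, and Klf5-deleted 2 has 5 of the 43 and 1 other gene.

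By array, 95 genes stood out on control 2, 12 on Klf5-deleted 3, 6 on Klf5-deleted 2, 3 on control 1 and none on Klf5-deleted 1 or control 3. The hormone and Tpbp genes made up 24 of the 95 on control 2, and granzymes 5 of the 6 on Klf5-deleted 2. None of the 43 stood out on Klf5-deleted 3 or control 1. In all, 29 of the 43 stood out on some array and 14 did not.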

How the data were processed

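The deposited table holds a log2 value for each feature on each array. RMA (background correction, quantile normalization, probe summary) made them, per the submitters' processing notes. The log2 scale was read from the values, 3.24 to 14.6. No build, probe annotation or RMA version is given in the sources used here. RMA is known to compress differences of dim features. Without scanner data no detection call was made, and the number of arrays limits the precision. Of 35557 features, 21789 carried 1 gene symbol, 1621 several and 12147 were unnamed here; where a gene had several features (999 genes), that with the highest mean over the 6 arrays was taken, leaving 19938 genes. Groups were compared with limma 3.58.1 in R 4.3.3 (lmFit, eBayes, two-sided, no covariates) with Benjamini-Hochberg adjustment over the 19938 genes; the code was tested on simulated data. Exact permutation of 3 against 3 arrays cannot give a p under 0.1 and was not used. The members and marker lists were chosen with earlier results of these data known. Genes named were Tpbpa and Tpbpb, members standing out on an array, the 5 highest means and 3 widest ranges per family, the 3 widest ranges per marker list, bladder and sex-linked genes, and the 8 most alike in shape to Tpbpa and Gzmd; the other names were added after their values were seen. The alternatives left out each array, added the replicate number as a block, centred arrays on their medians, repeated quantile normalization, averaged features, dropped dim genes, used a trend or array weights, and moved the 2-fold line to 1.5-fold or 4-fold.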

Additional observations from a re-analysis of the deposited data

How the results depend on the processing

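The count of members past the threshold was 0 under every alternative run with limma, with 0 to 4 members at an unadjusted p of 0.05 and a lowest adjusted p of 0.187 to 0.606. The count of all genes past the threshold, 395, was 141 to 349 when 1 array was left out (for Klf5-deleted 1, 2 and 3 it was 141, 172 and 253, and for control 1, 2 and 3 it was 165, 349 and 261), 110 with the replicate number as a block and 239 among genes at or above the median gene, a filter that left 9969 genes to test. Same-numbered arrays deviated together at correlations of 0.0092, 0.031 and 0.079, so the numbers were not taken to pair the samples. The median difference of the members, -0.65, was -1.15 to 0.17 when 1 array was left out, and the value above 0 was the one without control 2; the filter on dim genes kept only 2 members, with a median of 0.13. The 24 members standing out on control 2 stayed at 24 in number with arrays centred on their medians, quantile normalized or with features averaged, and were 27 at 1.5-fold, 22 at 4-fold and 1 of the 2 members kept by the filter on dim genes. Without scanner files, signal over background could not be given. RMA is known to compress differences of dim features, and 41 of the 43 genes had a mean below that of the median gene. Folds may therefore be understated, but compression was not measured.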

Other observations

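Genes outside the placental and granzyme families also stood out on control 2, and those named here were chosen after their values were seen. Psg-ps1, a Psg pseudogene outside the symbol rule, read 5.41, 5.83 and 5.14 on Klf5-deleted 1, 2 and 3 and 5.13, 10.49 and 5.42 on control 1, 2 and 3. Ceacam3 and Ceacam5 were 16.3-fold and 14.8-fold above their next array, Klf5-deleted 2. Il1a, an interleukin gene, read 8.02 on control 2 and 5.16 to 5.55 elsewhere, and Sfrp4, a secreted Wnt inhibitor gene, read 8.66 against 6.06 to 6.46.

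Another array order appeared in Guca2b, Prap1 and Akr1c18. Guca2b, which codes for the gut and kidney peptide uroguanylin, read 9.68, 7.98 and 7.96 in the Klf5-deleted group and 7.66, 12.29 and 8.14 in controls. Prap1, a gene of uterine and intestinal epithelium, read 9.73, 7.21 and 7.13 against 7.14, 11.79 and 7.64. Akr1c18, which codes for the enzyme that breaks down progesterone, read 7.23, 5.72 and 5.69 against 5.59, 9.46 and 5.68. All 3 were high on control 2 and next on Klf5-deleted 1, whereas Klf5-deleted 2, the highest array for the granzymes and the next for the Psg genes, lay near the low arrays. No cause was tested for this order.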
